A study of Homo sapiens with 74 samples.

Results

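Of 28131 genes counted in K562 cells, 24 were expressed in control cells and close to undetected after knockout of ENL. They were chosen by their level in CPM, the count of a gene scaled by the total count of its library: at least 3 in both control libraries and under 0.5 in each of 3 ENL knockout (KO) libraries. The rule also left out symbols of 10 families, but none of the 24 genes that met the limits carried such a symbol. The 24 genes were drawn from 10658 genes with at least 3 CPM in both controls. Because the ENL KO and control libraries chose the genes, their levels there are given as a description without a test. The DOT1L KO libraries of K562 and all libraries of HEL took no part in the choice.

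K562 and HEL are established human erythroleukaemia cell lines. Poly(A) RNA was sequenced from K562 cells labelled wild type (2 distinct control libraries), ENL-/- (3 libraries) and DOT1L-/- (3 libraries), grown in DMEM with serum. Another deposited control column held the same count in every gene as the second and was counted with it as 1 sample. HEL cells, grown in RPMI-1640 with serum and β-mercaptoethanol, were labelled control (2 libraries) and DOT1L knockdown (KD; 2 libraries). The labels do not say whether a knockout line was 1 clone, how the knockdown was made, or whether replicates came from separate cultures, so p-values measure only the spread between these libraries. The labels of the controls and of the DOT1L KO name a sequencing lane and those of the ENL KO name none. A batch difference between the ENL KO and the controls therefore cannot be told apart from the knockout.

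ENL, encoded by MLLT1, carries a YEATS domain that binds acylated lysines of histone H3. It sits in the super elongation complex, which releases paused RNA polymerase II, and in complexes with DOT1L, the methyltransferase of lysine 79 of histone H3. Both proteins are known from leukaemia, where MLL fusion proteins recruit them to target genes.

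The K562 libraries held between 15404944 (ENL KO 3) and 29236703 (DOT1L KO 2) fragments, the HEL libraries between 12151495 and 12811688 reads. A count of 0 leaves room for up to 3 counts. That floor was worth 0.103 to 0.195 CPM in K562 and 0.234 to 0.247 CPM in HEL, for counting error only. MLLT1 RNA was still counted in the ENL KO, at 150, 153 and 153 CPM against 212 and 216 CPM in the controls (log2 fold change -0.48, SE 0.051, adjusted p = 5.26e-06, edgeR). DOT1L RNA stood at -0.53 on the log2 scale against control (SE 0.057, adjusted p = 4.09e-06, edgeR) in its K562 knockout and at -1.64 (SE 0.064, adjusted p = 2.22e-28, edgeR) in the HEL knockdown. Counts over whole genes do not show whether a small deletion disrupts the protein. All 12 erythroid identity markers checked, GATA1, KLF1 and globin genes among them, were above 3 CPM in every group, as the cell lines' labels say. Of 8 megakaryocyte markers 2 were above 3 CPM in each K562 group. Their summed level was 7.29 to 9.81 CPM in the controls, 28.9 to 36.1 CPM in the ENL KO and 34.3 to 35.9 CPM in the DOT1L KO, with GP1BA at 0 in all 3 groups. Of 4 monocyte markers 1 was above 3 CPM. Their summed level was 32.8 to 35.7 CPM in the controls, 19.5 to 20.2 CPM in the ENL KO and 302 to 327 CPM in the DOT1L KO, with FCN1 at 0. Of 4 T cell markers 1 was above 3 CPM. Their sum was 50.8 to 52.7 CPM in the controls, 61.3 to 70.7 CPM in the ENL KO and 16.4 to 20.6 CPM in the DOT1L KO, with CD28 at 0. The erythroid sum was 7238 to 7748 CPM in the controls, 9203 to 9324 CPM in the ENL KO and 11518 to 12064 CPM in the DOT1L KO. In HEL, 7 of the 8 megakaryocyte markers were above 3 CPM in the controls and 6 in the KD. Their summed level was 2576 to 2647 CPM in the HEL controls and 2103 to 2106 CPM in the HEL KD. The erythroid sum in HEL was 7448 to 7536 CPM in the controls and 10280 to 10965 CPM in the KD. The part of these marker levels in the results was not tested.

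The start regions of the genes differed widely in base composition. RefSeq sequences around the start (GRCh38.p14) were matched for 20 of the 24 genes. SVEP1, PPIAP46, CADPS2 and PLPP1 had no entry. The 6 printed here are those on which the later comparisons turn, each as the 250 bases before the start, 5′ to 3′ on the strand of the gene. Capitals mark the TATA box (TATAAA), the CCAAT box, the GC box (GGGCGG) and the GATA words (AGATAA or AGATAG or TGATAA or TGATAG), on either strand. Matches of different words were allowed to overlap. CAMK2D (chr4:113761739-113761988, minus strand) had the highest control level. DNAJC12 (chr10:67838189-67838438, minus strand) and CTNNA3 (chr10:67696196-67696445, minus strand) lie beside each other. MCIDAS (chr5:55227316-55227565, minus strand) has a neighbour that was also low in the ENL KO. TMPRSS15 (chr21:18403786-18404035, minus strand) and TRERF1 (chr6:42452225-42452474, minus strand) had the largest increases in the DOT1L KO.
CAMK2D: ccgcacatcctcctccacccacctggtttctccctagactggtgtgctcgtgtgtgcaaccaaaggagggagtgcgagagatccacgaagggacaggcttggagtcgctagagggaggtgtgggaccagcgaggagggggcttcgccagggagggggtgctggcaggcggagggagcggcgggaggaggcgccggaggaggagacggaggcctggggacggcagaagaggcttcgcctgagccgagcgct
DNAJC12: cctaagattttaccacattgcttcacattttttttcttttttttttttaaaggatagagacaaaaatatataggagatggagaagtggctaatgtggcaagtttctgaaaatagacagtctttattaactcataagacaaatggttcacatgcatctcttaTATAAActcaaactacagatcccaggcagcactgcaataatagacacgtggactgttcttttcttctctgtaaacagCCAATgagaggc
CTNNA3: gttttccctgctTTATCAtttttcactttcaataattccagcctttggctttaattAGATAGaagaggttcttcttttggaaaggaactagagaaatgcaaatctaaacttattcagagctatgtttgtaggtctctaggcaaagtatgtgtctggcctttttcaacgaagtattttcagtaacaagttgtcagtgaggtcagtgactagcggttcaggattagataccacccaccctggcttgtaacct
MCIDAS: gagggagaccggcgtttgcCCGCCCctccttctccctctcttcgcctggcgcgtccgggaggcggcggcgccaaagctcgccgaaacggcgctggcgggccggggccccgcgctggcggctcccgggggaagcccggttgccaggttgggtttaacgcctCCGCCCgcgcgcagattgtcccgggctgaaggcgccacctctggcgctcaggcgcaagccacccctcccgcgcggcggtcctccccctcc
TMPRSS15: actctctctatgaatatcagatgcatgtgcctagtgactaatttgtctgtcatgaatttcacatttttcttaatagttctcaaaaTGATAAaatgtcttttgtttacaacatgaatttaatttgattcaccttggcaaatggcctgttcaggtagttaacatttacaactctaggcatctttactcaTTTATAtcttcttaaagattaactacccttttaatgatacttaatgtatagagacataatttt
TRERF1: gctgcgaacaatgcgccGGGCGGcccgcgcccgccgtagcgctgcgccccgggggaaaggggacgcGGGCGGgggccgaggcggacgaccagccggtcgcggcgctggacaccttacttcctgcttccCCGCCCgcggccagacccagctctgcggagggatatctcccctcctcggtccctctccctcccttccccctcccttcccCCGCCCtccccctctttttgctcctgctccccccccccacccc

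DNAJC12, CTNNA3 and TMPRSS15 start in AT-rich sequence, while MCIDAS and TRERF1 start in GC-rich sequence with GC boxes, and none of the searched words was in the window of CAMK2D. Over the window from 250 bases before to 50 after the start, the GC content was 31.7% in TMPRSS15, 36.3% in DNAJC12, 40.7% in CTNNA3, 69.0% in TRERF1 and 75.0% in MCIDAS. The median over the 20 matched genes was 60.2%, beside 65.7% over 8435 matched genes of at least 3 CPM in both controls and 58.3% over all 27305 promoters of the table. The median number of CpG dinucleotides was 19, beside 27 and 14. A GC box was in 11 of 20 (55.0%), beside 72.2% of the expressed genes and 44.6% of all promoters. A TATA box was in DNAJC12 and TMPRSS15 (10.0% of 20, beside 4.97% and 11.95%). CCAAT was in DNAJC12, FAM174B, HLX and CDH18 (20% of 20, beside 37.4% and 35.7%). A GATA word was in SEC14L6, RAB3B, TMPRSS15 and CTNNA3 (20% of 20, beside 14.0% and 25.5%). These are matches of letters and say nothing about binding. The RefSeq start lay within 189 bases of the start in the count table for 19 of the 20 genes and 4732 bases away for ABCC9.

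In the ENL KO the 24 genes kept between 0.673% (SEC14L6) and 9.30% (MCIDAS) of their control level, with a median of 3.56%. Their control means ran from 3.25 CPM (STEAP1) to 12.6 CPM (CAMK2D), with a median of 5.27 CPM beside 43.2 CPM over 10479 of the expressed genes with a usable position. All 24 were therefore weakly expressed, and between 140 and 545 fragments per gene lay behind the 2 controls together. The 3 ENL KO libraries together held 2 (CTNNA3) to 21 (MCIDAS) fragments per gene. In 10 genes at least 1 ENL KO library had no fragment: 3 genes in ENL KO 1, 1 gene in ENL KO 2 and 7 genes in ENL KO 3, which is also the shallowest. SEC14L6, EPHA5, CADPS2, TMPRSS15, CTNNA3, CDH18 and PLPP1 had at most 3 fragments in every ENL KO library, so each library was at or under the floor of 3 counts. In these bulk libraries fewer expressing cells and less RNA per cell cannot be told apart.

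Several of the 24 genes act at the cell surface or in adhesion. EPHA5, a receptor for ephrins, was at 7.47 and 7.52 CPM in the controls and at 0.142, 0.143 and 0 CPM in the ENL KO. Its antisense partner EPHA5-AS1, on the opposite strand, had a mean of 0.558 CPM in the controls and 0 in the ENL KO. SVEP1, a large secreted adhesion protein, was at 6.55 and 6.40 CPM in the controls and at 0.378, 0.429 and 0.195 CPM in the ENL KO. CTNNA3, the alpha-T catenin that links cadherins to actin, was at 4.01 and 3.36 CPM in the controls and at 0, 0.0477 and 0.0649 CPM, which is 0, 1 and 1 fragment. CDH18, a cadherin, had 3.78 and 3.50 CPM against 0, 0.143 and 0.195 CPM. CD109, a membrane-anchored protein that binds TGF-beta receptors, had 4.34 and 6.16 CPM against 0.189, 0.191 and 0.13 CPM. Further membrane proteins were FAM174B, CMTM7 of the MARVEL family and STEAP1 of a family of metalloreductases. FAM174B was at 8.67 and 10.9 CPM in the controls and at 0.236, 0.143 and 0.260 CPM in the ENL KO.

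Others of the 24 genes are known from signalling, vesicle release and ion channels. CAMK2D, the delta subunit of calcium/calmodulin-dependent kinase II, was at 12.8 and 12.5 CPM in the controls and at 0.236, 0.0477 and 0 CPM in the ENL KO. These were 6 fragments in all against 545, or 0.824% of the control level (95% exact interval 0.301 to 1.81%). PCLO (a scaffold of the presynaptic active zone), CADPS2 (a priming factor of dense-core vesicles) and RAB3B (a vesicle GTPase) all serve regulated exocytosis. PCLO was at 5.67 and 5.93 CPM against 0.331, 0.334 and 0 CPM. CADPS2 was at 4.47 and 4.62 CPM against 0.142, 0.143 and 0 CPM, and RAB3B at 3.92 and 3.97 CPM against 0.284, 0.381 and 0.195 CPM. ABCC9 encodes the SUR2 subunit of ATP-sensitive potassium channels. It was at 5.03 and 3.97 CPM in the controls and at 0.142, 0.429 and 0.0649 CPM in the ENL KO.

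Transcriptional regulators were HLX, TRERF1 and MCIDAS. HLX, a homeobox factor, was at 6.97 and 6.73 CPM in the controls and at 0.284, 0.238 and 0.260 CPM in the ENL KO. TRERF1, a zinc-finger regulator, was at 3.46 and 3.92 CPM against 0.236, 0.238 and 0.13 CPM. MCIDAS (multicilin), which starts the programme of multiciliated cells, was at 3.74 and 4.11 CPM and kept 0.331, 0.334 and 0.454 CPM, or 7 fragments in each ENL KO library. Its 9.30% of the control level (95% exact interval 5.61 to 14.7%) was the highest among the 24.

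Enzymes, chaperones and structural proteins made up the rest. DNAJC12, a co-chaperone of the aromatic amino acid hydroxylases, was at 12.2 and 13.0 CPM in the controls and at 0.284, 0.0477 and 0 CPM in the ENL KO. SEC14L6, of the SEC14-like lipid-binding proteins, was at 7.93 and 7.57 CPM against 0.142, 0 and 0 CPM, or 3 fragments against 334. Its share of the control level was 0.673% (95% exact interval 0.138 to 1.98%). TMPRSS15, the protease enteropeptidase of the gut, was at 3.83 and 3.92 CPM against 0.0473, 0.143 and 0 CPM. PLPP1, a phospholipid phosphatase, was at 3.55 and 3.50 CPM against 0, 0.0953 and 0.13 CPM. ENAH (Mena) binds actin filament ends, and NBDY is a small protein that disperses P-bodies. ENAH was at 7.70 and 5.88 CPM against 0.425, 0.238 and 0.260 CPM, and NBDY at 5.90 and 7.61 CPM against 0.284, 0.334 and 0.195 CPM. NINL, a centrosomal protein, and PPIAP46 complete the list. PPIAP46 is a transcribed pseudogene of cyclophilin A, and fragments can be split between it and near-identical copies, so its value is uncertain. Per kilobase of exon, the mean control level ran from 0.260 CPM in PCLO to 8.25 CPM in DNAJC12 and 10.8 CPM in PPIAP46.

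**Figure D1:**
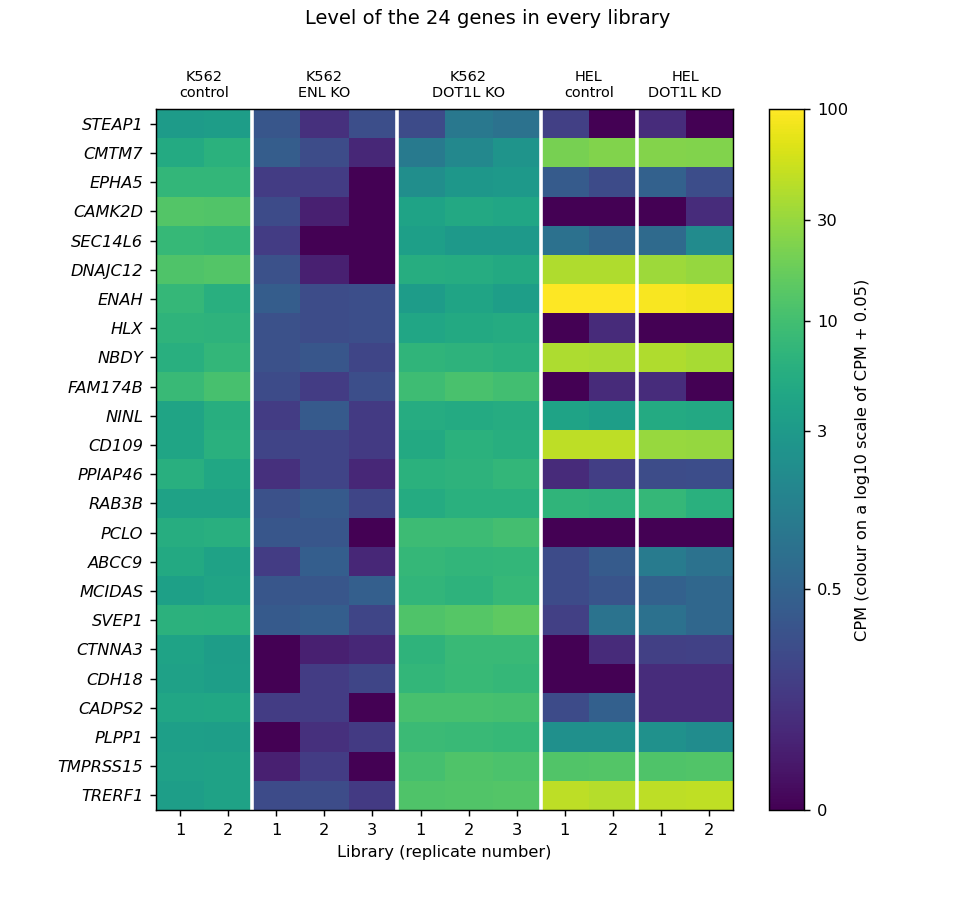
Level of each of the 24 genes (rows, ordered by their change in the DOT1L KO) in every library (columns, grouped by cell line and genotype), as colour on a log10 scale of CPM + 0.05. The ENL KO columns are dark for all 24 genes because they were chosen so, the lowest value in the DOT1L KO columns is 0.231 CPM in STEAP1, and HEL splits into genes such as ENAH (99.3 and 97.5 CPM in the controls) and genes at 0 such as PCLO.

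Genes close to the limits show how sharp the choice was. The lowest control level inside the limit was 3.14 CPM in STEAP1, followed by 3.36 CPM in CTNNA3. Just outside it were GPR85 with 2.998 CPM and PAK1 with 2.99 CPM in their lower control, both under 0.5 CPM in all ENL KO libraries. The highest ENL KO values inside the limit were 0.454 CPM in MCIDAS and 0.429 CPM in SVEP1. TPST1 with 0.519 CPM and FBXL2 with 0.520 CPM in their highest ENL KO library lay just outside. Values on either side of each limit were thus close to each other.

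None of the 24 genes was off in the DOT1L KO, where few expressed genes were. With the limits used to choose the genes, 20 of 24 were kept, at 3 CPM or more in all 3 DOT1L KO libraries, and 0 were under 0.5 CPM in all 3. Over all 10658 expressed genes 97.6% were kept and 0.0657% were off. Among the 2020 genes with control means in the same range as the 24 (3.25 to 12.6 CPM), 89.0% were kept and 0.297% were off. With so few off, 0 of 24 does not set the 24 genes apart from genes of their level. The 4 genes in between were SEC14L6, EPHA5, CMTM7 and STEAP1. The DOT1L KO was compared with the same controls that helped to choose the genes.

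In edgeR's quasi-likelihood test 11 of the 24 genes were higher in the DOT1L KO than in the controls, 8 were lower and 5 did not pass an adjusted p of 0.05. Over all 14301 genes tested, 26.9% were higher and 24.2% were lower. The median log2 fold change of the 24 genes was 0.21, beside 0.01 over all genes tested. All 24 genes passed the filter on low counts in K562, as the rule set their control level. In the CPM of the libraries, all DOT1L KO values were above all control values for 12 of the 24 genes, PPIAP46 and the 11 higher genes, and below them for the 8 lower genes. Among all genes tested these shares were 38.9% and 28.9%.

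TRERF1 rose most, to 12.3, 12.7 and 13.1 CPM in the DOT1L KO from 3.46 and 3.92 CPM (log2 fold change 1.74, SE 0.13, adjusted p = 1.15e-07, edgeR). TMPRSS15 rose from 3.83 and 3.92 CPM to 10.6, 12.4 and 11.5 CPM (log2 fold change 1.53, SE 0.16, adjusted p = 2.55e-06, edgeR). Both were thus low without ENL, TMPRSS15 at or under the floor, and raised without DOT1L. PLPP1 was at 8.77, 8.52 and 8.14 CPM in the DOT1L KO (log2 fold change 1.22, adjusted p = 3.12e-05, edgeR). CADPS2 was at 10.8, 10.9 and 10.4 CPM (1.19, adjusted p = 1.68e-05, edgeR) and PCLO at 9.05, 9.06 and 10.3 CPM (0.66, adjusted p = 0.00658, edgeR). RAB3B was at 5.26, 6.16 and 6.13 CPM (0.53, adjusted p = 0.0118, edgeR). The adhesion genes SVEP1 (12.1, 13.5 and 15.2 CPM), CTNNA3 (6.83, 8.45 and 8.53 CPM) and CDH18 (7.48, 8.41 and 7.79 CPM) rose by 1.03, 1.06 and 1.07 on the log2 scale. ABCC9, at 7.75, 7.25 and 7.69 CPM, and MCIDAS, at 7.39, 6.81 and 8.09 CPM, rose by 0.70 and 0.87. The call was lost for PCLO (adjusted p = 0.0559) and RAB3B (0.0692) without control 1, and for ABCC9 (0.0786) and RAB3B (0.0578) without control 2, each in the same edgeR test.

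STEAP1 fell most, to 0.231, 0.992 and 0.833 CPM in the DOT1L KO from 3.14 and 3.36 CPM (log2 fold change -2.23, SE 0.35, adjusted p = 0.000131, edgeR). CMTM7 fell from 5.07 and 6.40 CPM to 1.11, 1.68 and 2.50 CPM (-1.76, SE 0.27, adjusted p = 0.000102, edgeR). EPHA5 was at 2.08, 2.77 and 2.99 CPM (-1.56, SE 0.19, adjusted p = 1.18e-05, edgeR). So the membrane and adhesion genes went both ways, with SVEP1, CTNNA3 and CDH18 up and STEAP1, CMTM7 and EPHA5 down. CAMK2D fell to 4.06, 4.86 and 4.36 CPM (-1.55, SE 0.16, adjusted p = 3.19e-06, edgeR), and DNAJC12 to 5.68, 5.44 and 5.00 CPM (-1.27, SE 0.16, adjusted p = 2.38e-05, edgeR). SEC14L6 was at 3.60, 2.94 and 2.99 CPM (-1.33), ENAH at 3.23, 4.17 and 3.43 CPM (-0.94) and HLX at 4.48, 4.96 and 5.29 CPM (-0.52). The lowest of these levels outside STEAP1 was 1.11 CPM for CMTM7. STEAP1 had 0.231 CPM (5 fragments) in DOT1L KO 1, under its 0.331 CPM (7 fragments) in ENL KO 1. The rule kept every ENL KO value under 0.5 CPM, so the gap between ENL KO and DOT1L KO levels was not tested. FAM174B, at 9.42, 11.1 and 9.80 CPM, had a log2 fold change of 0.00 (SE 0.13), and NBDY, at 7.06, 6.67 and 6.18 CPM, one of -0.07 (SE 0.15). CD109, NINL and PPIAP46 did not pass the test either, although PPIAP46 passed without control 1 (log2 fold change 0.55, adjusted p = 0.0410, edgeR).

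**Figure D2:**
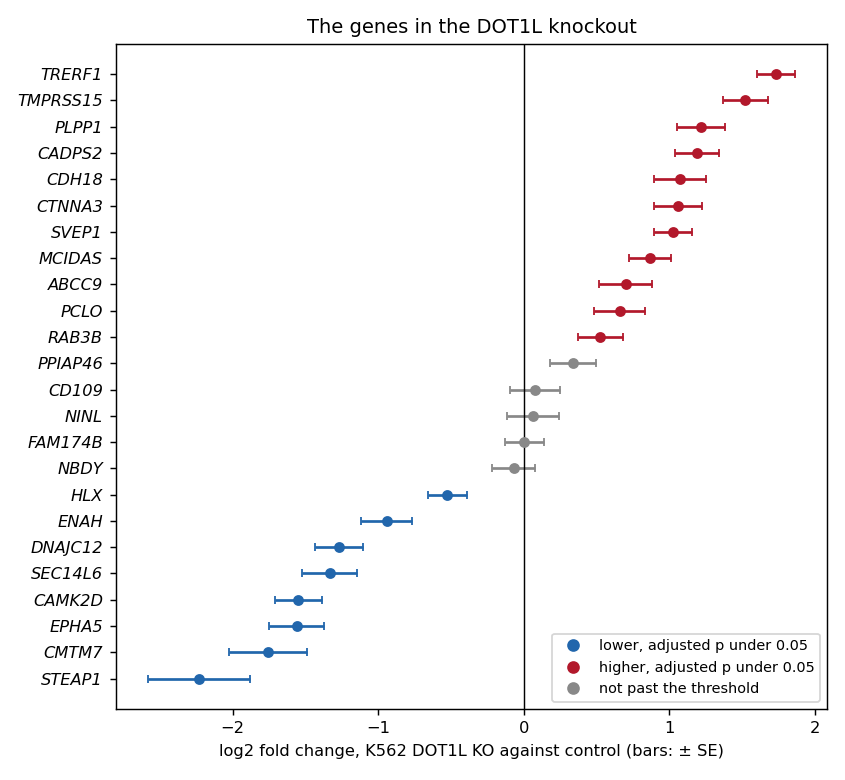
Log2 fold change of each of the 24 genes in the K562 DOT1L KO (3 libraries) against the controls (2 libraries), with bars of 1 SE and colour by the edgeR call at an adjusted p of 0.05. The genes spread from -2.23 (STEAP1) to 1.74 (TRERF1), with 8 below and 11 above 0 past the threshold.

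HEL cells expressed a minority of the 24 genes. In the HEL controls 9 genes were at 3 CPM or more in both libraries, 12 were under 0.5 CPM in both and 3 were between. Over the 10658 genes expressed in K562 controls, 87.7% were expressed in HEL and 5.69% were absent, and in the range of control levels of the 24 genes the shares were 61.4% and 17.3%. HEL values come from a separate table of read counts, so levels in the 2 cell lines are set side by side without a test. ENAH had the highest level in HEL, at 99.3 and 97.5 CPM. CD109 was at 46.1 and 46.4 CPM, TRERF1 at 46.4 and 42.5 CPM and DNAJC12 at 39.9 and 40.0 CPM. In the K562 controls none of these 4 genes was above 13.0 CPM. NBDY was at 39.0 and 38.1 CPM, CMTM7 at 21.0 and 23.3 CPM, TMPRSS15 at 12.6 and 13.1 CPM and RAB3B at 7.04 and 6.71 CPM. NINL was the ninth expressed gene.

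The genes absent in HEL were CAMK2D, FAM174B, EPHA5, HLX, PCLO, PPIAP46, CADPS2, ABCC9, MCIDAS, CTNNA3, CDH18 and STEAP1. CAMK2D, the highest of the 24 in K562 controls, had no read in either HEL control, which allows up to 0.237 and 0.234 CPM. PCLO and CDH18 had none either. SEC14L6 (0.791 and 0.546 CPM), SVEP1 (0.158 and 0.859 CPM) and PLPP1 (2.22 and 2.19 CPM) were between. Genes both kept in the K562 DOT1L KO and expressed in HEL were DNAJC12, ENAH, NBDY, CD109, NINL, RAB3B, TMPRSS15 and TRERF1, 8 in all (33.3%), beside 86.8% of the 10658 expressed genes. Another 10 (41.7%) were kept in the DOT1L KO and absent in HEL, beside 4.85% of those genes. CMTM7 was expressed in HEL and not kept.

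In the HEL DOT1L knockdown 3 of the 12 genes tested were lower and 1 was higher in edgeR's test. The other 12 of the 24 had too few reads to be tested. Over all 12635 genes tested in HEL, 28.0% were lower and 27.0% higher. With upper-quartile scaling these were 2768 lower and 4412 higher genes in place of 3540 and 3411. CD109 went from 46.1 and 46.4 CPM to 30.8 and 30.0 CPM (log2 fold change -0.64, SE 0.072, adjusted p = 6.24e-11, edgeR). DNAJC12 went to 32.2 and 29.5 CPM (-0.41, SE 0.075, adjusted p = 7.75e-06, edgeR). ENAH was at 93.3 and 86.1 CPM (-0.17, SE 0.048, adjusted p = 0.00272, edgeR). Its call was lost without KD 2 (adjusted p = 0.116), with upper-quartile scaling (0.0884) and in DESeq2 (0.0602). ABCC9 was higher in the KD, at 1.13 and 0.823 CPM against 0.237 and 0.390 CPM (1.57, SE 0.54, adjusted p = 0.0122, edgeR). These levels rest on few reads, and the call was lost without control 1 (adjusted p = 0.161), without KD 1 (0.121), without the filter on low counts (0.0503) and in DESeq2 (0.171). The other 8 genes tested, NBDY, SVEP1, CMTM7, NINL, RAB3B, TMPRSS15, TRERF1 and PLPP1, did not pass the threshold.

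**Figure D3:**
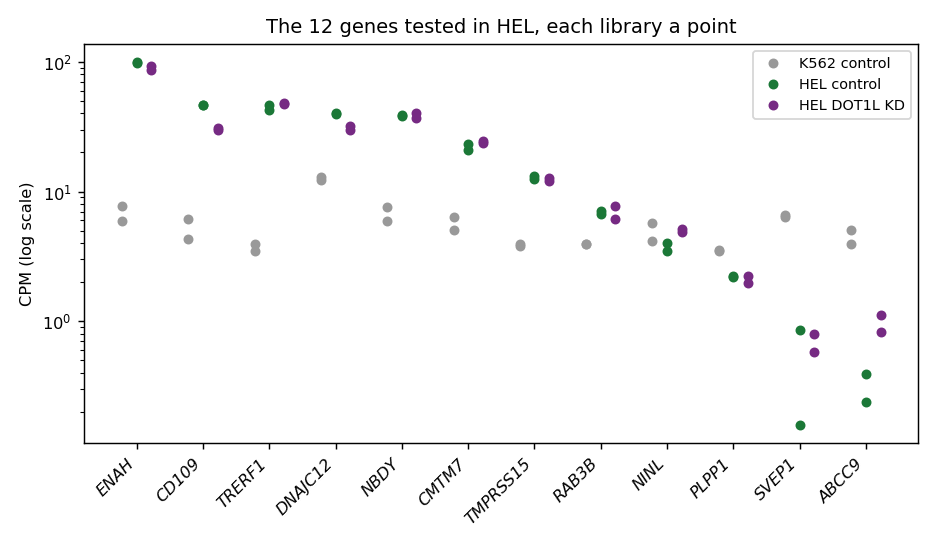
CPM on a log scale of the 12 genes that could be tested in HEL, with each library as a point: K562 controls (grey), HEL controls (green) and HEL DOT1L KD (purple). The 6 genes on the left lie at or above 21.0 CPM in HEL and at or below 13.0 CPM in K562 controls.

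The response to DOT1L depletion differed between the cell lines for 7 of the 12 genes tested in HEL (interaction of cell line and depletion, edgeR). The share was 38.9% of all 15367 genes of the joint fit. That set is wider, as it includes genes too low to be among the 12635 tested in HEL alone, so the shares are over unlike sets. In this test the cell line goes together with knockout against knockdown and with fragment against read counting, and these cannot be told apart. TRERF1 and TMPRSS15 rose in the K562 knockout by 1.66 and 1.599 more, on the log2 scale, than in the HEL knockdown (adjusted p = 8.93e-09 and 4.33e-07, edgeR). In HEL, TRERF1 was at 46.9 and 48.0 CPM and TMPRSS15 at 12.1 and 12.7 CPM in the KD, close to their controls. PLPP1 differed by 1.29 (adjusted p = 0.00137, edgeR) and CD109, at -0.64 in HEL and 0.08 in K562, by 0.70 (adjusted p = 0.00372, edgeR). Without K562 control 1 the CD109 difference was 0.45 (adjusted p = 0.0654, edgeR). CMTM7 had the most negative difference, -1.86 (adjusted p = 3.33e-06, edgeR), with 24.5 and 23.5 CPM in the HEL KD. DNAJC12 and ENAH fell in both lines and fell more in K562, by -0.88 and -0.78 (adjusted p = 3.61e-05 and 0.000535, edgeR).

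The nearest expressed gene on each side gave 46 distinct neighbours, at a median gap of 160 kb. Their median log2 fold change in the ENL KO was 0.02, and 38 of 46 (82.6%) were within 0.5 of 0, beside 82.7% of all 10658 expressed genes. Lower by at least 1 on the log2 scale were 3 of 46 (6.52%), beside 4.74% of all: KCNJ8, CCNO and ADGRL3. The count was 9 when neighbours were taken from 1 CPM and 0 when they were taken from 10 CPM. Within 1000 kb of the 24 genes lay 185 other expressed genes, and their median was 0.02. Of the 185, 14 were lower by at least 1, beside 505 of all 10658 expressed genes (4.74%). The lowest were FBXL2 at -3.60 and OSBPL10 at -3.07, which lie 821 and 410 kb from CMTM7. FBXL2 had means of 5.15 CPM in the controls and 0.409 CPM in the ENL KO, and OSBPL10 of 5.17 and 0.612 CPM. Around PPIAP46 the expressed genes had negative log2 fold changes, such as -0.58 for UBL7, -0.89 for CSK and -2.01 for CD276. STOML1 (0.44) was the exception there. All these values come from the comparison that chose the 24 genes and are given without a test.

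KCNJ8 lies 22.7 kb from ABCC9 on chromosome 12 and encodes Kir6.1, the pore that assembles with SUR2 into a potassium channel. KCNJ8 was at 10.3 and 9.34 CPM in the controls and at 1.56, 1.19 and 1.04 CPM in the ENL KO, a log2 fold change of -2.92. Both genes of this channel were thus low in the ENL KO. In the DOT1L KO KCNJ8 was at 15.0, 14.9 and 14.9 CPM (log2 fold change 0.56, SE 0.11, adjusted p = 0.000884, edgeR), so both genes were higher there. CCNO lies 3.84 kb from MCIDAS on chromosome 5 and, like it, acts in multiciliated cells. CCNO was at 7.66 and 7.01 CPM in the controls and at 1.47, 1.52 and 2.21 CPM in the ENL KO, a log2 fold change of -2.10. In the DOT1L KO it was at 7.89, 7.49 and 8.38 CPM (0.06, SE 0.13, adjusted p = 0.725, edgeR). ADGRL3, an adhesion receptor 3241 kb from EPHA5, had a log2 fold change of -1.27.

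Among the 24 genes, 2 pairs lay within 200 kb of each other. DNAJC12 and CTNNA3 are 100 kb apart on chromosome 10 with no expressed gene between them, and the next expressed gene beyond DNAJC12, SIRT1, had a log2 fold change of 0.16 in the ENL KO. In the DOT1L KO this pair parted, with DNAJC12 at -1.27 and CTNNA3 at 1.06. MCIDAS and PLPP1 are 198 kb apart on chromosome 5 with DHX29 and CCNO between them. PLPP1 overlaps MTREX, an RNA helicase gene on the opposite strand, which had a mean of 195 CPM in the controls and 212 CPM in the ENL KO. Without knowledge of strand use, fragments from such overlaps can be counted for either gene.

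**Figure D4:**
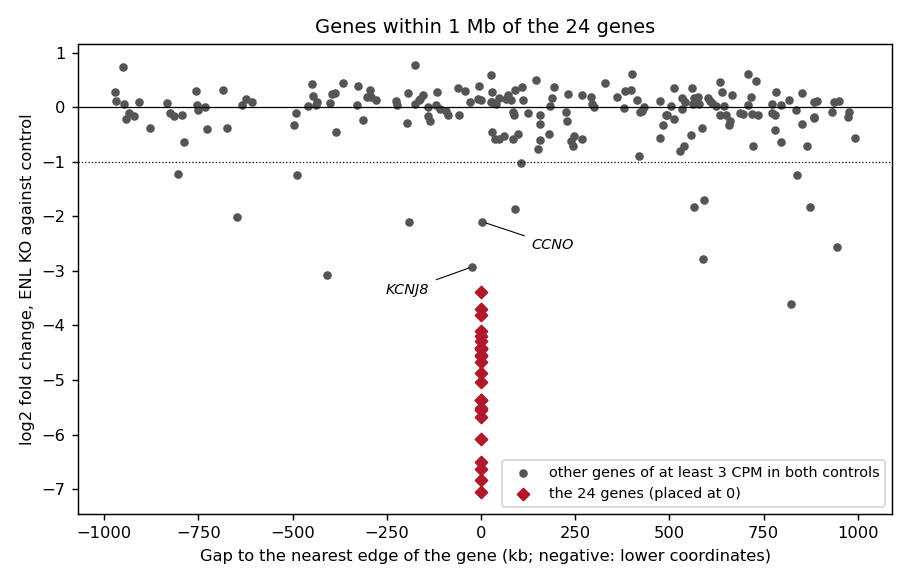
Log2 fold change in the ENL KO of every expressed gene within 1000 kb of the 24 genes (grey), against its gap to them in kb, with the 24 genes themselves at 0 (red); a gene near more than 1 of the 24 appears once for each. Most grey points lie near 0, while KCNJ8 (-2.92) and CCNO (-2.10) lie low next to ABCC9 and MCIDAS. FBXL2 (-3.60) and OSBPL10 (-3.07), farther out around CMTM7, lie lower still, and the genes around PPIAP46 lie mostly below 0.

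The 24 genes were long beside other expressed genes. The median span from first to last exon was 133 kb (0.490 kb in PPIAP46 to 1784 kb in CTNNA3), beside 28.1 kb over 10479 expressed genes with a usable position. Over 100 kb were 14 of 24 (58.3%), beside 15.4% of the expressed genes. CTNNA3 and CDH18 (1105 kb) were the longest, followed by CADPS2 (568 kb) and PCLO (409 kb). The median exonic length was 5469 bases beside 3467 bases, and the median number of exon blocks 16.5 beside 10. Of the 24 genes 23 were annotated as protein coding. Among 1921 expressed genes with control means in the range of the 24, the median span was 22.1 kb and 14.3% were over 100 kb.

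**Figure D5:**
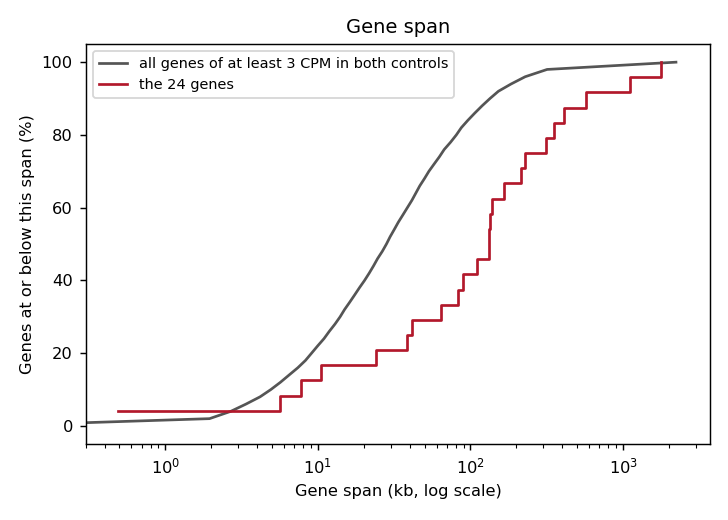
Share of genes at or below a given span (kb, log scale) for the 24 genes (red) and for all expressed genes with a usable position (grey). The red line runs to the right of the grey one over most of the range, with medians of 133 kb and 28.1 kb.

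Relatives by symbol could be listed for some of the 24 genes. Symbols had to share the letters before the first digit, at least 3 letters, in a family of 2 to 60 genes. This held for 12 of the 24 genes, and 11 of them had relatives with at least 3 CPM in both controls, 63 in all. The DNAJC and SEC stems gave 45 of the 63. In the ENL KO 2 of them, SEC24D and PLPP2, were lower by at least 1 on the log2 scale and 0 were higher by as much, and their median was 0.03. These counts leave out relatives under 3 CPM, some of which moved more in either direction. Examples are CAMK1D at -3.93 and ABCC3 at 2.39, with control means of 0.348 and 0.371 CPM. CAMK2G, another subunit of the kinase, had means of 80.1 CPM in the controls and 83.5 CPM in the ENL KO. CTNNA1, the widely expressed alpha-catenin, was at 250 and 252 CPM, and none of the 22 expressed DNAJC relatives of DNAJC12 moved by 1. PLPP2, which encodes a related phosphatase, had 11.6 CPM in the controls and 3.63 CPM in the ENL KO. SEC symbols also name genes outside the SEC14-like group, so that stem is not 1 family.

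Partners of ENL and DOT1L were listed separately. Of 22 listed members of the DOT1L and super elongation complexes and of related YEATS and chromobox partners, 21 were tested in K562. In the ENL KO 6 were lower and 8 higher (edgeR), beside 22.2% and 18.8% of all 14301 genes. The lower ones were MLLT1, AFF1, AFF3, ELL3, CDK9 and YEATS2, with AFF1, a scaffold of the super elongation complex, at -0.57 on the log2 scale (SE 0.074, adjusted p = 3.82e-05, edgeR). In the DOT1L KO 4 were lower (DOT1L, ELL3, EAF2 and BCOR) and 4 higher (AFF3, CCNT2, YEATS4 and CBX8), beside 24.2% and 26.9% of all genes. With the library number as a replicate block 7 were lower. AFF3, another scaffold, was at -1.83 (adjusted p = 0.01998, edgeR) in the ENL KO and at 4.39 (adjusted p = 5.44e-09, edgeR) in the DOT1L KO. Both comparisons share their controls. In the HEL KD 8 of 20 tested were lower and 7 higher, beside the shares of 28.0% and 27.0% over all genes. Without HEL control 2 the higher ones numbered 4. Each count of lower genes includes the targeted gene itself, MLLT1 in the ENL KO and DOT1L in the K562 DOT1L KO and the HEL KD. Those calls are not results about partners.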

How the data were processed

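The 24 genes, the rule that chose them and the gene lists were taken up with earlier results of these data known. The authors deposited raw counts per gene, fragment counts for K562 and read counts for HEL, per the file headers; the counts are whole numbers with a different total in each distinct library. The submitters' processing notes list fastp 0.13.1, HISAT2 2.1.0, Bowtie2 2.3.4.1, deepTools and featureCounts 1.6.1 and the builds hg38 and hg19, without roles. Gene positions of the tables are on hg38. The use of strand in counting is not given in the sources used here, so values of overlapping genes are uncertain. The exonic length per gene comes from the same deposited tables. The chromatin and nascent RNA samples of the series were not analysed here.

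CPM was computed from the column totals. Fold changes and p-values came from edgeR 4.0.16 (R 4.3.3) on the counts: filterByExpr, TMM scaling and the quasi-likelihood test, Benjamini-Hochberg adjustment over all genes tested and a threshold of 0.05. All K562 groups entered 1 fit, HEL a second, and both lines a joint fit for the interaction. DESeq2 1.42.0, other scalings, no filter, other limits and each library left out were tried as alternatives. Intervals for the share of the control level are exact 95% intervals from the fragment counts and cover counting error only. The scripts were tested on simulated data. Genes with a gap of 2000000 bases or more between exons have no position here.

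Levels or fold changes, though not in every library, are given for a fixed choice of genes. These are the 8 genes highest in the controls, the 8 kept genes highest in the DOT1L KO and the 8 highest in HEL. They also include up to 8 that passed in HEL, the 2 genes on either side of each limit, MLLT1 and DOT1L. Values of further genes, of neighbours and of relatives were chosen after they were seen. Start regions come from RefSeq (GRCh38.p14).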

Additional observations from a re-analysis of the deposited data

Results flagged for a closer look

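For 7 of the 12 genes tested in HEL, the response to DOT1L depletion differed between the cell lines in the joint edgeR fit (adjusted p from 8.93e-09 to 0.00372). Over all 15367 genes of that fit the share was 38.9%, and these include genes too low to be tested in HEL alone. The interaction was not examined for the other 12 of the 24 genes, which did not pass the HEL filter on low counts. The differences are those of K562 knockout minus HEL knockdown, on the log2 scale. They were -0.8819 for DNAJC12 and -0.7843 for ENAH, which were lower after depletion in both lines, and -1.859 for CMTM7, which passed the test in K562 alone. They were 1.5994 for TMPRSS15, 1.6588 for TRERF1 and 1.2939 for PLPP1, which passed in K562 and not in HEL, and 0.7048 for CD109, which passed in HEL and not in K562. The kind of depletion and the kind of counting change with the cell line and cannot be told apart from it.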

How the results depend on the processing

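The number of genes chosen followed the limits. It was 55 with 2 CPM and 11 with 5 CPM as the control limit, 11 with 0.25 CPM and 82 with 1 CPM as the ENL KO limit, and 26 to 33 with 1 control or ENL KO library left out; all 24 genes were retained in the wider choices. TMM-scaled CPM added GPR85 and PAK1. With off at under 1 CPM, 1 gene (STEAP1) was off in the DOT1L KO. With a log2 fold change of at least 1 also required, 7 genes were higher in the K562 DOT1L KO and 0 lower in the HEL KD. The genes higher in the HEL KD numbered 0 in DESeq2 and without the filter on low counts, and 0 to 1 with 1 library left out. Neighbours lower in the ENL KO numbered 9 when counted from 1 CPM and 0 from 10 CPM. Over all genes, DESeq2 called 2017 higher in the HEL KD in place of 3411, and without control 1 edgeR called 1671 higher in the ENL KO in place of 2691. For the list of ENL and DOT1L partners the alternatives were added after seeing the data: the genes higher in the HEL KD numbered 4 in place of 7 in DESeq2, without the filter and without HEL control 2 (4 to 7 with 1 library left out).

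Single-gene fold changes kept their side of the threshold in 621 settings, lost the call in 12 and gained it in 3. The sign changed in 21 settings, 0 of them for a fold change that had passed the test. The gains were PPIAP46 in K562 without control 1, and the RAB3B interaction without HEL KD 1 or without K562 DOT1L KO 1. Pairing was checked on the deviations of each library's log CPM from the mean of its group, not on the levels. In these deviations same-numbered libraries of different K562 groups correlated at 0.0419 to 0.293, and differently numbered ones at -0.2243 to 0.1401. In HEL the values were 0.0071 and -0.0071, which must be equal in size with 2 libraries per group. The main fits did not take the numbers as pairs, and whether K562 libraries were paired was not settled. Over all genes, a block on the number gave 4017 lower and 4323 higher in the K562 DOT1L KO, in place of 3459 and 3846. With the number as a replicate block, 8 genes were lower and 11 higher in the K562 DOT1L KO, 3 lower and 1 higher in the HEL KD, and 7 past the interaction threshold; no call among the 24 genes changed. Of the listed partners 7 in place of 4 were lower in the K562 DOT1L KO. Levels near 3 fragments per library limit what the ENL KO can show.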
